A study of Mus musculus with 6 samples.

Results

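This account follows 9 transcription factors that mark epithelial or mesenchymal states of carcinoma cells: Sox9, Klf5, Elf3, Hmga2, Snai1, Snai2, Twist1, Zeb1 and Zeb2. They were chosen by name, and all 9 were found among the 28649 gene names of the deposited matrices. The data are droplet single-cell counts of unique molecular identifiers (UMIs, tags that mark each captured RNA molecule) from 6 libraries of the mouse 4T1 model, a mammary carcinoma line that stands for triple-negative breast cancer. There were 3 libraries labelled shPgk1, from 4T1 cells given a lentiviral short hairpin RNA against Pgk1, and 3 labelled shNC, from 4T1 cells given a control hairpin. In both groups lentivirus was applied for 48 h, puromycin selection (2 µg/mL) lasted 7 days, and cell suspensions had to exceed 80% viability. The labels' genotype and treatment fields give the same entry in both groups. No age or host is given for the samples, and nothing says that the libraries came from separate animals or cultures, so the p-values measure only the spread between these samples.

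Carcinoma cells can move along an axis between an epithelial state, with keratins and cell junctions, and a mesenchymal state. Snai1 and Snai2 (zinc-finger repressors), Zeb1 and Zeb2 (zinc-finger and homeodomain repressors) and Twist1 (a basic helix-loop-helix factor) are known to drive cells towards the mesenchymal end, and the Snai and Zeb factors bind E-box letters in promoters of junction genes such as Cdh1. Elf3 is an epithelial factor of the ETS family, Klf5 a Krüppel-like factor of basal epithelium, Sox9 a factor of mammary progenitors, and Hmga2 an architectural chromatin protein of embryonic and metastatic cells. Fibroblasts, endothelial cells and leukocytes also use Snai, Twist and Zeb factors, so a level in a tumour suspension depends on which cells hold it.

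Tumour barcodes were those with a summed count of Epcam, Krt7, Krt8 and Krt18 of at least 12 per 10000 UMIs. Barcodes under that limit with at least 10 Col1a2 counts per 10000 UMIs formed the Col1a2-high gate, and the rest are called other barcodes. None of the 9 members was used for a gate. The 41458 kept barcodes held 19347 tumour, 1821 Col1a2-high and 20290 other barcodes. Tumour barcodes made up 50.6, 60.5 and 56.6% of the libraries labelled shPgk1, against 33.5, 36.2 and 41.5% of the shNC libraries. Total counts were 78778073 to 128933960 per library, and the median depth of tumour barcodes was 7610 to 12619 UMIs. Epithelial genes that the gate did not use (Krt19, Cldn4, Cldn7, Wfdc2 and Cdh1) summed to 2395 to 2786 CPM, the counts scaled to a gate total of 1000000 UMIs, in tumour barcodes and to 196 to 372 CPM in Col1a2-high barcodes. Fibroblast genes other than Col1a2 summed to 15589 to 19373 CPM in Col1a2-high barcodes, against 219 to 663 CPM in tumour barcodes, so both gates went with their names. In each library 16 to 52 tumour barcodes also passed the Col1a2 limit. Barcode names are running numbers and repeat between libraries, 1234 to 1671 names per pair of libraries, so shared names do not show shared cells. Pgk1 itself stood at 241, 291 and 317 CPM in tumour barcodes of the libraries labelled shPgk1 and at 278, 240.0 and 220.4 CPM in those of shNC libraries, so the first are called by their label throughout (log2 fold 0.33 ± 0.14 with its standard error, SE, and adjusted p = 0.134 by edgeR).

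The E-box that Snai and Zeb factors are known to bind is shown in the promoters of the searched members that carry it, since these factors could meet it in each other's genes. RefSeq windows (GRCm38.p6, 250 bases before to 50 bases after a start) were searched for 5 of the 9 members: Elf3, Hmga2, Snai1, Twist1 and Zeb2. Zeb1 was left out of the search, and no window was matched for Sox9, Klf5 or Snai2. The search used CACCTG and its reverse complement CAGGTG, which covers both strands. Elf3 and Snai1 each held 1 CACCTG, with its first base at position −140 in Elf3 and −126 in Snai1, counted from the start. The windows of Hmga2 and Twist1 and the 4 windows of Zeb2 held neither spelling. Among all 32851 windows of the same length, 6640 (20.2%) held at least 1 of the 2 spellings. The stretches below run 5′ to 3′ on the strand of the gene, with the E-box in capitals. The Elf3 stretch is chr1:135258577-135258642 on the minus strand, and the Snai1 stretch is chr2:167538039-167538104 on the plus strand.
Elf3: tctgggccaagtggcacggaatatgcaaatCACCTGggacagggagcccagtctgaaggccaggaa
Snai1: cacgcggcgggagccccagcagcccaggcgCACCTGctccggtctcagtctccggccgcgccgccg

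The first question was which cells of the suspension held each factor. Sox9, Klf5, Elf3 and Hmga2 were concentrated in tumour barcodes in all 6 libraries. Snai1 and Twist1 were present in tumour barcodes and higher in Col1a2-high barcodes. Snai2 was held by Col1a2-high and endothelial-gated barcodes. Zeb1 was held by T or NK-, dendritic- and endothelial-gated and Col1a2-high barcodes, and Zeb2 by macrophage-, neutrophil- and dendritic-gated and Col1a2-high barcodes. Tests compared summed counts of the gates within each library, each fold is given with its SE, and intervals reach 2 SE to each side. All 9 members passed in the test of tumour against Col1a2-high barcodes, 4 higher and 5 lower, where 39% of the 14808 genes tested were higher and 34.1% were lower. Of tumour against other barcodes, 6 of the 8 members tested were higher and 2 lower, where 40.3% of 16880 genes were higher and 38.3% were lower. With most genes past the threshold in both tests, the sizes carry more than the counts.

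Sox9 stood at 297, 458 and 514 CPM in tumour barcodes of the libraries labelled shPgk1 and at 285, 314 and 329 CPM in those of shNC libraries. Its level in Col1a2-high barcodes was 33.5 to 81.6 CPM. The tumour level was higher in all 6 libraries, by a log2 fold of 2.80 ± 0.09 (edgeR adjusted p = 7.08e-16). Klf5 was at 187 to 325 CPM in tumour barcodes and at 28.3 to 51.4 CPM in Col1a2-high barcodes (log2 fold 2.44 ± 0.09, edgeR adjusted p = 8.75e-15). Elf3 was at 32.4 to 50.9 CPM in tumour barcodes, against 4.61 to 8.01 CPM in Col1a2-high barcodes (2.64 ± 0.11, edgeR adjusted p = 3.74e-14). Hmga2 was at 203 to 282 CPM, against 30.9 to 49.0 CPM in Col1a2-high barcodes (2.53 ± 0.09, edgeR adjusted p = 1.66e-15). Against other barcodes the log2 folds were 3.26 ± 0.06 for Sox9, 3.33 ± 0.07 for Klf5, 2.67 ± 0.07 for Elf3 and 2.71 ± 0.08 for Hmga2 (edgeR adjusted p = 7.47e-12 or smaller in each).

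The remaining signal of these 4 genes in leukocyte gates was low. In macrophage-gated barcodes Sox9 was at 6.14 to 10.4% of its tumour level, Klf5 at 5.35 to 9.96%, Hmga2 at 7.07 to 10.2% and Elf3 at 9.60 to 16.3%. The epithelial genes left out of the gate were at 7.21 to 11.8% of their tumour level in the same barcodes. The part of tumour RNA in the values of these 4 genes there was not tested. T or NK-gated barcodes gave 6.42 to 11.4% for Sox9 and 5.09 to 9.79% for Klf5. Other barcodes without any leukocyte or stromal gate held more, with Hmga2 at 77.0 to 174 CPM and Sox9 at 58.2 to 116 CPM.

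Snai1, which represses Cdh1, was at 22.3, 21.5 and 21.3 CPM in tumour barcodes of the libraries labelled shPgk1 and at 21.8, 28.6 and 33.3 CPM in those of shNC libraries. In Col1a2-high barcodes it was at 53.9, 55.9 and 52.2 CPM in libraries labelled shPgk1 and at 69.7, 66.4 and 79.4 CPM in shNC libraries. Each library was lower in its tumour barcodes, with a log2 fold of −1.40 ± 0.08 (edgeR adjusted p = 5.15e-12). Twist1 was at 23.6 to 32.2 CPM in tumour barcodes, against 67.8 to 94.5 CPM in Col1a2-high barcodes (−1.70 ± 0.08, edgeR adjusted p = 9.19e-14). Both were higher in tumour than in other barcodes, by 1.96 ± 0.09 for Snai1 and 2.56 ± 0.08 for Twist1 (edgeR adjusted p = 5.07e-10 and 1.44e-11). In macrophage-gated barcodes Snai1 was at 11.9 to 19.6% and Twist1 at 11.1 to 17.4% of the tumour level. Tumour barcodes held 1.22 to 4.08% of the fibroblast list's level in Col1a2-high barcodes. They held 31.2 to 43.1% of the Snai1 level and 27.8 to 38.1% of the Twist1 level there. The same percentages for Zeb1 and Zeb2 also lay above that of the fibroblast list in every library. The part of fibroblast RNA in the levels of these genes in tumour barcodes was not tested. Endothelial-gated barcodes were also high in Snai1, at 25.5 to 58.0 CPM, on 18 to 85 counts per library.

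Snai2 was nearly absent from tumour barcodes. It had 35 counts in all 19347 of them, 3 to 11 per library, against 179 counts in the 1821 Col1a2-high barcodes, 12 to 46 per library. The log2 fold of tumour against Col1a2-high barcodes was −5.45 ± 0.36 (edgeR adjusted p = 5.96e-11). Snai2 levels in tumour barcodes were 0.0397 to 0.310 CPM, and 3 counts in a library would give 0.0378 to 0.108 CPM there. Endothelial-gated barcodes held 2 to 5 Snai2 counts per library, and neutrophil- and dendritic-gated barcodes held 0.

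Zeb1 was at 3.77, 3.92 and 4.48 CPM in tumour barcodes of the libraries labelled shPgk1 and at 6.34, 6.97 and 6.43 CPM in those of shNC libraries. It was at 32.9 to 41.1 CPM in Col1a2-high barcodes (tumour against Col1a2-high −2.86 ± 0.10, edgeR adjusted p = 2.92e-15) and higher still in T or NK-gated barcodes, at 130 to 199 CPM, and endothelial-gated barcodes, at 161 to 245 CPM. Zeb2 was at 44.6, 37.7 and 37.4 CPM in tumour barcodes of the libraries labelled shPgk1 and at 79.5, 52.2 and 61.8 CPM in those of shNC libraries. Its levels elsewhere were 116 to 173 CPM in Col1a2-high barcodes, 391 to 617 CPM in macrophage-gated barcodes and 632 to 1680.3 CPM in neutrophil-gated barcodes. The log2 folds of tumour against other barcodes were −3.01 ± 0.12 for Zeb1 and −3.17 ± 0.12 for Zeb2 (edgeR adjusted p = 1.70e-09 and 9.50e-10), and that of Zeb2 against Col1a2-high barcodes was −1.57 ± 0.12 (edgeR adjusted p = 3.87e-08). Zeb1 was also at 45.4 to 198 CPM in dendritic-gated and 43.2 to 96.3 CPM in neutrophil-gated barcodes, and at 7.67 to 14.9 CPM in macrophage-gated barcodes. Zeb2 was at 201 to 518 CPM in dendritic-gated and 83.4 to 122 CPM in T or NK-gated barcodes. In endothelial-gated barcodes it was at 72.5 to 253% of its tumour level. Dendritic-gated barcodes thus held both genes, while macrophage-gated barcodes were high in Zeb2 alone, which is given as levels with no test.

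**Figure D1:**
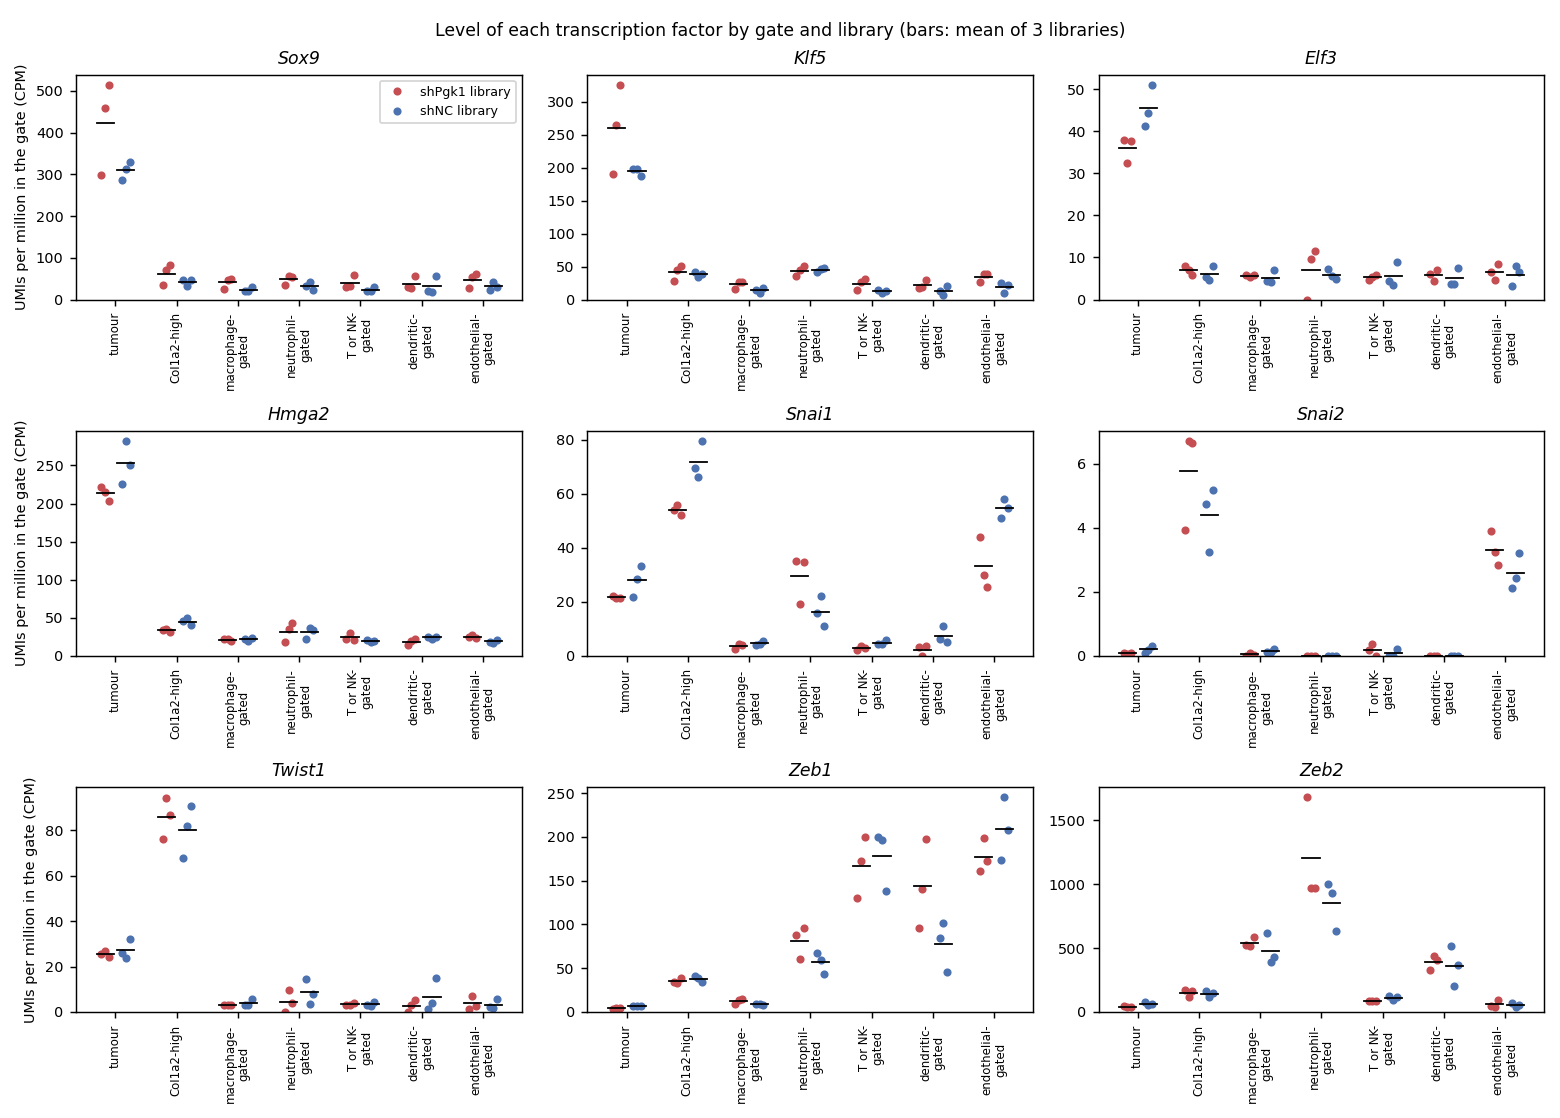
Level of each factor in CPM of the gate (vertical axis, linear from 0) in 7 gates (horizontal axis), 1 point per library with libraries labelled shPgk1 (red) left of shNC (blue) and a bar at the mean of 3. Sox9, Klf5, Elf3 and Hmga2 peak in tumour barcodes, Twist1 and Snai2 in Col1a2-high barcodes, and Zeb2 in neutrophil-gated barcodes, at 632 to 1680.3 CPM.

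The Zeb counts in tumour barcodes stood beside leukocyte RNA in the same barcodes. Zeb2 in tumour barcodes was 6.39 to 8.57% of its macrophage-gated level in libraries labelled shPgk1 and 12.9 to 14.3% in shNC libraries. The macrophage list of 8 markers (among them Csf1r, Adgre1, Cd68, C1qa, C1qb and Lyz2, none of these at 0) was at 4.26 to 6.90% of its macrophage-gated level in tumour barcodes of libraries labelled shPgk1 and at 7.73 to 9.54% in those of shNC libraries. Zeb1 in tumour barcodes was 2.25 to 2.91% of its T or NK-gated level in libraries labelled shPgk1 and 3.18 to 4.64% in shNC libraries. The T or NK list was at 0.544 to 1.48% and 1.15 to 1.64% in the same libraries. The part of such RNA in the Zeb levels of tumour barcodes was not tested.

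A second view counted barcodes with at least 1 UMI after each barcode was thinned to 3000 UMIs, which left out 1605 of 11827 tumour barcodes in libraries labelled shPgk1 and 1246 of 7520 in shNC libraries as too shallow. Sox9 was seen in 46.0 to 62.5% of tumour barcodes, Hmga2 in 40.3 to 46.0%, Klf5 in 36.3 to 48.3% and Elf3 in 10.2 to 14.04%. Without thinning the shares were 67.5 to 82.3% for Sox9, 67.0 to 72.4% for Hmga2, 59.2 to 75.4% for Klf5 and 29.2 to 37.7% for Elf3. The mesenchymal factors were seen in fewer thinned tumour barcodes, Zeb2 in 9.07 to 21.8%, Snai1 in 6.08 to 9.11%, Twist1 in 5.79 to 8.04% and Zeb1 in 1.20 to 1.87%. Macrophage-gated barcodes at the same 3000 UMIs gave 5.55 to 14.2% for Sox9, 5.94 to 7.36% for Hmga2, 2.44 to 8.35% for Klf5, 0.983 to 2.45% for Elf3, 0.655 to 1.80% for Snai1 and 0.835 to 1.60% for Twist1. The tumour shares of these 6 genes lay above the macrophage-gated shares in every library. The tumour share of Zeb1 lay below the macrophage-gated share, 2.26 to 3.60%, in all 6 libraries. So did that of Zeb2, where the macrophage-gated share was 53.1 to 65.6%. Whether tumour cells themselves express Zeb1 or Zeb2 was not tested. The median depth before thinning was 7610 to 12619 UMIs in tumour barcodes and 13832 to 18332 UMIs in macrophage-gated barcodes.

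**Figure D2:**
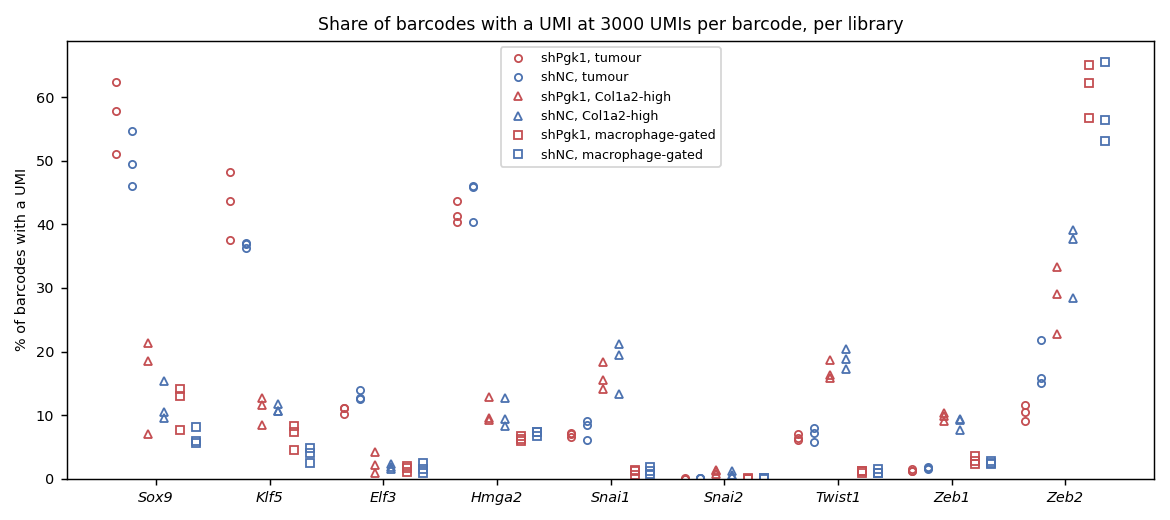
Percent of barcodes with at least 1 UMI of each factor after thinning to 3000 UMIs (vertical axis), 1 point per library, for tumour (circles), Col1a2-high (triangles) and macrophage-gated barcodes (squares), with libraries labelled shPgk1 in red left of shNC in blue. Sox9 is seen in 46.0 to 62.5% of tumour barcodes and in 5.55 to 14.2% of macrophage-gated ones, and Zeb2 in 53.1 to 65.6% of macrophage-gated ones.

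The limit of 12 per 10000 UMIs cuts a continuous scale, so levels were also followed along the summed gate genes in barcodes that passed neither the Col1a2 limit nor any leukocyte or stromal gate. Just outside the limit, at sums of 8 to 12, Sox9 was at a median of 198 CPM over libraries, and just inside, at 12 to 20, it was at 259 CPM. Sox9 went on to 373 CPM at 40 to 80 and 582 CPM at 80 or more, and Klf5 did likewise, at 90.8 CPM just outside, 140.1 CPM just inside and 433 CPM at 80 or more. Hmga2 had another shape, at 293 CPM just outside, 329 CPM just inside, 239 CPM at 20 to 40 and 190 CPM at 80 or more. Snai1 was at 17.1 CPM just outside and between 22.5 and 26.9 CPM in all bins inside the limit, and Twist1 at 17.7 CPM just outside and between 23.5 and 26.3 CPM inside. Zeb1 and Zeb2 were lower at each step inside the limit, Zeb1 at 26.3 CPM just outside, 9.34 CPM just inside and 3.06 CPM at 40 to 80, and Zeb2 at 189, 83.0 and 37.3 CPM in the same bins. These are descriptions of levels relative to the gate genes, with no test, and the bin at 80 or more held as few as 52 barcodes in a library.

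**Figure D3:**
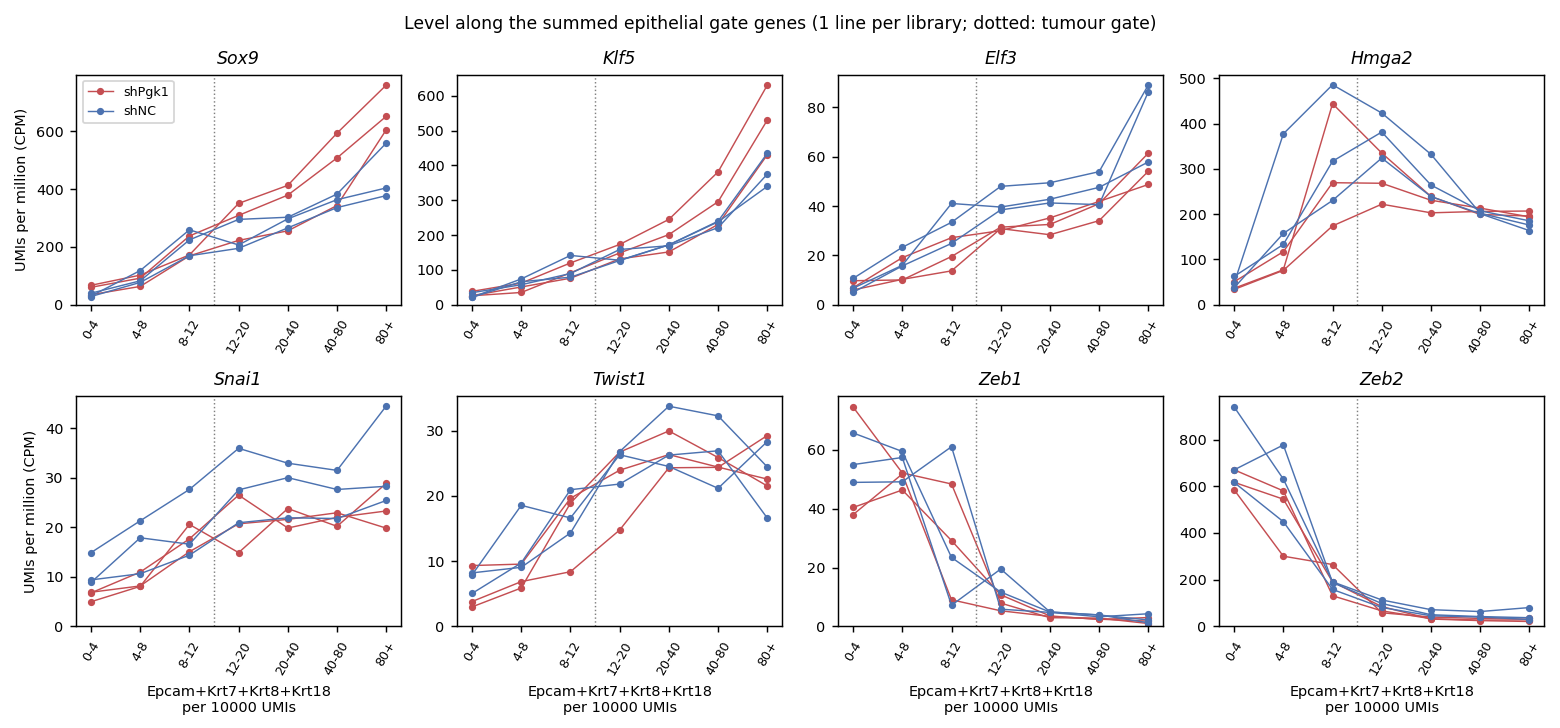
Level of 8 factors (CPM, vertical axis) against the summed Epcam, Krt7, Krt8 and Krt18 counts per 10000 UMIs (horizontal axis, 7 bins), 1 line per library, libraries labelled shPgk1 in red and shNC in blue, with the tumour limit dotted. Sox9 and Klf5 climb along the sum, Hmga2 peaks around the limit, Snai1 and Twist1 are level inside it, and Zeb1 and Zeb2 are at their lowest there.

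Within tumour barcodes, epithelial factors were found together more often than their single shares would give. At 3000 UMIs the number of tumour barcodes with both genes of a pair was divided by the number expected from the 2 shares in that library. Sox9 and Klf5 shared 641, 1144 and 1280 barcodes in libraries labelled shPgk1 and 463, 385 and 548 in shNC libraries, which is 1.15 to 1.28 times the expected number. The ratio was 1.16 to 1.32 for Klf5 and Elf3, 1.09 to 1.20 for Sox9 and Elf3, and 1.01 to 1.07 for Sox9 and Hmga2. In all, 8 of 28 pairs without Snai2 were above 1 in all 6 libraries, the 4 just given and Sox9 with Snai1 (1.05 to 1.17), Elf3 with Snai1 (1.08 to 1.58), Hmga2 with Twist1 (1.01 to 1.26) and Hmga2 with Zeb2 (1.03 to 1.16). Cells of 1 library are not replicates and share its free RNA, so no test is given. Pairs of other genes were not counted, so whether such ratios are particular to these factors was not tested. Without thinning all 28 pairs were above 1 in every library.

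Snai1 and Twist1 were seen in barcodes that also held epithelial factors. Elf3, an epithelial factor, and Snai1, a repressor of epithelial genes, were seen together in 24, 40 and 39 barcodes of the libraries labelled shPgk1 and in 19, 26 and 46 of the shNC libraries, against 22.2, 25.3 and 28.5 and 16.4, 19.3 and 29.9 expected. The pair was above the expected number in each library, on small counts. Both members of this pair carry the CACCTG shown above in their promoter windows, where 20.2% of all windows held it or its reverse complement. A link between the E-box and the shared barcodes was not tested. Snai1 and Twist1 shared 7 to 21 barcodes per library, 0.704 to 1.19 times the expected number. Snai1 or Twist1 was seen in 12.8 to 16.3% of tumour barcodes. Of these, 71.2, 79.1 and 85.1% in libraries labelled shPgk1 and 72.8, 71.8 and 77.0% in shNC libraries also held Sox9, Klf5 or Elf3. Among tumour barcodes without Snai1 or Twist1 the share with Sox9, Klf5 or Elf3 was 68.8, 72.6 and 76.0% in libraries labelled shPgk1 and 64.0, 67.4 and 71.6% in shNC libraries. Pairs with Zeb1 rested on 0 to 36 barcodes per library, and Elf3 with Zeb1 and Snai1 with Zeb1 were below 1 in all 6, on 22 and 10 barcodes in all.

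**Figure D4:**
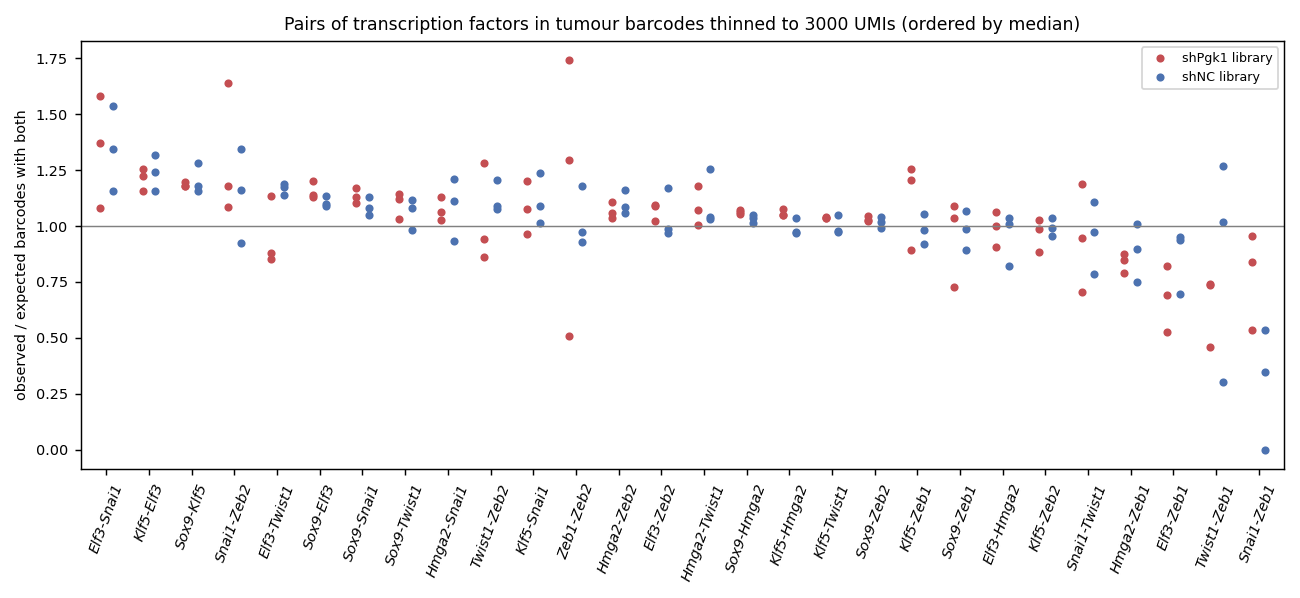
Observed over expected number of tumour barcodes with both factors at 3000 UMIs (vertical axis) for 28 pairs ordered by their median (horizontal axis), 1 point per library, libraries labelled shPgk1 (red) left of shNC (blue), with a line at 1. Pairs of Sox9, Klf5 and Elf3 lie above 1 in all 6 libraries, and pairs with Zeb1 scatter widely.

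The genes most like each member across tumour barcodes were ranked by the Pearson correlation of log-scaled values per 10000 UMIs, averaged over the 6 libraries, for the 7 members with at least 2000 counts there. The points are cells that share library and depth, so r is descriptive. Sox9 was closest to Phlda1 (r = 0.42), Jund (0.37) and Klf5 (0.37), and Klf5 to Sox9 (0.37), Lmna (0.37) and Tnfrsf12a (0.36). Elf3 was closest to the junction gene Cldn4 (0.21), Nfkbia (0.19) and Jund (0.19). Hmga2 was closest to Ccbe1 (0.44), Efna5 (0.39) and Apbb2 (0.39), and its r with Sox9 was 0.14. Zeb2 was closest to Cxcl2 (0.25), Plek (0.24) and Syk (0.23), genes that leukocytes are known to express, which stands beside the leukocyte RNA given above. The nearest genes of Snai1 (Id3, Ddit4 and Junb) reached r = 0.16 at most, and those of Twist1 (Rpl39, Ppia and Rpl10) reached 0.12, which in sparse counts is no finding. Zeb1 and Snai2, with 1547 and 35 counts, were not ranked.

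The study's own comparison, a hairpin against Pgk1 set against a control hairpin, was then made for each gate. In tumour barcodes Zeb1 was the single member past the threshold and was lower in libraries labelled shPgk1. Sox9 and Klf5 had higher means and Zeb2 a lower mean without passing. Elf3, Hmga2, Snai1 and Twist1 had fitted folds of less than 0.3 on the log2 scale, and Snai2 was not tested for want of counts. Thus 1 of 8 members tested was called, where 4.51% of 16665 genes were called. The TMM scaling behind the folds (trimmed mean of M values, which the CPM do not have) moved the median over all genes by 0.12, to −0.03, against −0.15 without it, so the folds lie above what the printed CPM give. Without TMM scaling Elf3 was at −0.34 and Snai1 at −0.36, neither of them called, Twist1 turned to −0.10, and Zeb1 (−0.69, edgeR adjusted p = 0.02001) and Zeb2 (−0.69, edgeR adjusted p = 0.0296) were called. Of all genes, 288 were called higher and 464 lower with TMM scaling, against 111 higher and 1384 lower without it.

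Zeb1, at the levels given above, did not overlap between the groups, since every library labelled shPgk1 was below every shNC library. Levels of 4 of the 8 members tested did not overlap in tumour barcodes (Elf3, Hmga2, Zeb1 and Zeb2), where 35.8% of the 16665 genes did not. The mean of Zeb1 was 4.06 ± 0.38 CPM in libraries labelled shPgk1 and 6.58 ± 0.34 CPM in shNC libraries (SD, n = 3 each), on 211 to 356 and 194 to 262 counts per library. The log2 fold was −0.57 ± 0.13 (−0.83 to −0.31, edgeR adjusted p = 0.0434). Marker lists of other cell types in the same tumour barcodes were also lower or overlapped. The fibroblast list summed to 219 to 311 CPM in libraries labelled shPgk1 and to 395 to 663 CPM in shNC libraries, without overlap. The neutrophil list (135 to 179 CPM in libraries labelled shPgk1, 355 to 478 CPM in shNC libraries) and the macrophage list (513 to 842 CPM in libraries labelled shPgk1, 891 to 1096 CPM in shNC libraries) did not overlap either. Nor did the dendritic list (6.89 to 8.97 CPM in libraries labelled shPgk1, 9.45 to 15.3 CPM in shNC libraries) or the mast or basophil list (12.7 to 23.4 CPM in libraries labelled shPgk1, 30.8 to 61.4 CPM in shNC libraries). The T or NK list (20.2 to 44.4 CPM in libraries labelled shPgk1, 30.7 to 47.7 CPM in shNC libraries) and the endothelial list (17.8 to 23.2 CPM in libraries labelled shPgk1, 22.4 to 34.8 CPM in shNC libraries) overlapped, as did the pericyte and B lineage lists. The part of all these lists in the Zeb1 result was not tested. The call was lost without library 1, 2 or 3 labelled shPgk1 (edgeR adjusted p = 0.0510, 0.140 and 0.129), without shNC library 2 or 3 (0.153 and 0.0874), with doublet-like barcodes kept (0.102) and with a tumour limit of 8 or 20 (0.0709 and 0.0727). It was kept without shNC library 1 (0.0281) and without tumour barcodes past another cell gate (0.0479).

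Zeb2 also did not overlap between the groups. Its mean was 39.9 ± 4.1 CPM in libraries labelled shPgk1 and 64.5 ± 13.8 CPM in shNC libraries, and its log2 fold of −0.58 ± 0.15 (−0.88 to −0.27) missed the threshold (edgeR adjusted p = 0.0554). The macrophage list, by library, summed to 842, 513 and 593 CPM in libraries labelled shPgk1 and to 920, 891 and 1096 CPM in shNC libraries. Its part in the Zeb2 values was not tested, nor was that of the neutrophil list. Without tumour barcodes past another cell gate the log2 fold was −0.67 ± 0.17 (edgeR adjusted p = 0.0527). Zeb2 passed with DESeq2 (−0.56 ± 0.16, adjusted p = 0.00843), without a filter on low counts (edgeR adjusted p = 0.0331), without TMM scaling as given above, and without library 1 labelled shPgk1 or shNC library 1 (edgeR adjusted p = 0.0455 and 0.0408).

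Sox9 averaged 423 ± 112 CPM in tumour barcodes of libraries labelled shPgk1 and 309 ± 22.4 CPM in those of shNC libraries (SD, n = 3 each). Libraries 2 and 3 labelled shPgk1 were above all shNC libraries, whereas library 1, at 297 CPM, lay among them, and the log2 fold was 0.58 ± 0.19 (edgeR adjusted p = 0.0854). Klf5 was at 191, 265 and 325 CPM in libraries labelled shPgk1 and at 197, 198 and 187 CPM in shNC libraries, with library 1 again among the shNC values (0.55 ± 0.18, edgeR adjusted p = 0.0816). The values without 1 library moved these folds most. Without library 1 labelled shPgk1 both passed, at 0.77 ± 0.12 for Sox9 and 0.72 ± 0.12 for Klf5 (edgeR adjusted p = 0.0126 and 0.0155), and without library 3 they were 0.40 and 0.34 (0.261 and 0.254). Both also passed with DESeq2 on all libraries (adjusted p = 0.0158 and 0.0176).

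Tumour barcodes of the libraries labelled shPgk1 had a higher median gate sum, 36.2, 40.1 and 39.2 per 10000 UMIs against 31.8, 32.0 and 32.2 in shNC libraries. Levels at a matched gate sum can therefore be read side by side. At sums of 40 to 80 Sox9 was at 343, 507 and 593 CPM in libraries labelled shPgk1 and at 336, 363 and 383 CPM in shNC libraries. Zeb1 at the same sums was at 2.47, 2.37 and 2.83 CPM in libraries labelled shPgk1 and at 3.87, 3.93 and 3.28 CPM in shNC libraries, and Zeb2 at 34.3, 25.0 and 27.1 CPM against 63.7, 40.3 and 42.2 CPM. For Zeb1 and Zeb2 the groups did not overlap at sums of 20 to 40 either, but they did at 12 to 20 and at 80 or more. At 12 to 20 Zeb1 was at 5.32, 10.7 and 7.93 CPM in libraries labelled shPgk1 and at 19.5, 11.7 and 5.86 CPM in shNC libraries, and Zeb2 at 58.5, 84.9 and 66.7 CPM against 113, 81.1 and 98.2 CPM. No test was made within bins.

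Elf3 was at 37.8, 32.4 and 37.7 CPM in tumour barcodes of the libraries labelled shPgk1 and at 41.3, 44.2 and 50.9 CPM in those of shNC libraries. The groups did not overlap, with a log2 fold of −0.21 ± 0.11 (edgeR adjusted p = 0.191). Hmga2 was at 222, 215 and 203 CPM in libraries labelled shPgk1 and at 226, 282 and 250.003 CPM in shNC libraries, which also did not overlap (−0.12 ± 0.10, edgeR adjusted p = 0.431). Snai1, at the levels given above, overlapped (−0.24 ± 0.13, edgeR adjusted p = 0.242), and without shNC library 1 it was lower (−0.37 ± 0.10, edgeR adjusted p = 0.0278). Twist1 was at 25.3, 26.9 and 24.1 CPM in libraries labelled shPgk1 and at 25.8, 23.6 and 32.2 CPM in shNC libraries (0.02 ± 0.12, interval −0.21 to 0.26, edgeR adjusted p = 0.907).

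Shares of tumour barcodes at 3000 UMIs did not single out the same members as the levels, since Klf5 did not overlap in its shares and Hmga2 did. Klf5 was seen in 43.2 ± 5.4% of tumour barcodes in libraries labelled shPgk1 and in 36.8 ± 0.42% in shNC libraries, and Zeb2 in 10.4 ± 1.3% and 17.5 ± 3.7% (SD, n = 3 each). The groups did not overlap for 4 of the 8 members in tumour barcodes, Klf5, Elf3, Zeb1 and Zeb2, where the shares of 31.0% of the 16665 genes tested did not, and nothing is read from the count. These were 4 of 27 combinations of a member and a gate, where 24.0% of all combinations of a tested gene and a gate did not overlap by their expected shares, and by expected shares Hmga2 and Snai1 in Col1a2-high barcodes did not either. Each of the 4 in tumour barcodes had a two-sided exact permutation p = 0.1, the smallest that 3 against 3 allows, and 0.6 after Benjamini-Hochberg adjustment over the 27. In tumour barcodes Zeb1 or Zeb2 was seen in 12.7, 10.3 and 11.6% in libraries labelled shPgk1 and in 23.0, 16.5 and 17.3% in shNC libraries.

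**Figure D5:**
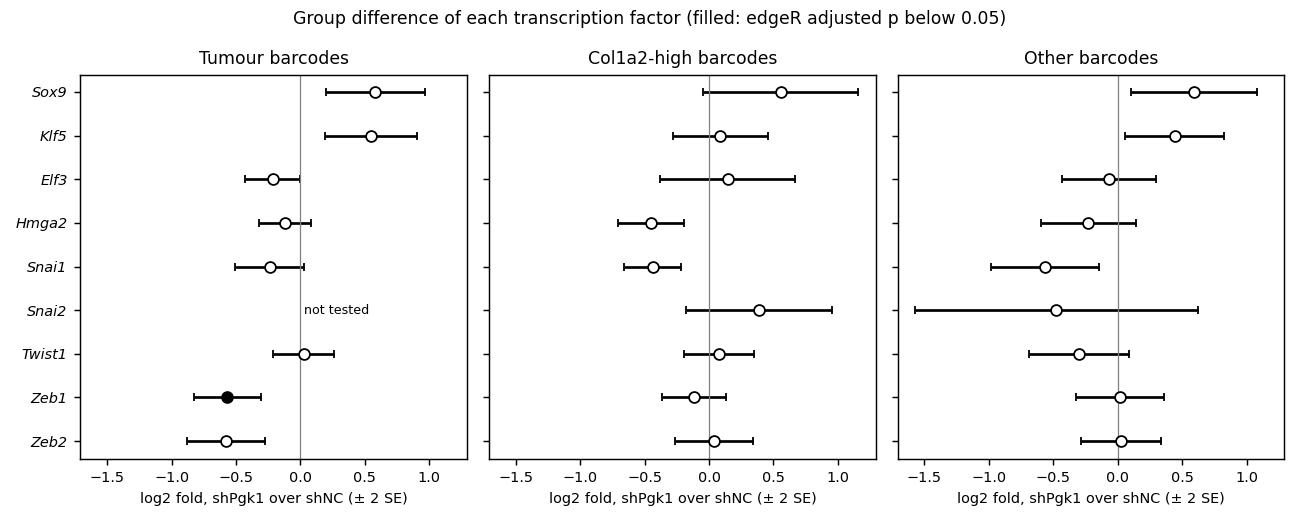
Log2 fold of libraries labelled shPgk1 over shNC (horizontal axis) with 2 SE to each side for each factor in tumour, Col1a2-high and other barcodes, from edgeR. Zeb1 in tumour barcodes, at −0.57, is the filled point (adjusted p below 0.05), and Snai2 was not tested in tumour barcodes.

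In Col1a2-high barcodes none of the 9 members passed, where 0.0408% of 12241 genes did. DESeq2 called 0 as well, and at an unadjusted p under 0.05 there were 2 with edgeR, Hmga2 (−0.45 ± 0.13) and Snai1 (−0.44 ± 0.11). At that unadjusted limit there were 1026 of the 12241 genes. Snai1 in Col1a2-high barcodes did not overlap between the groups, as its values above show, and its adjusted p was 0.282 with edgeR. Zeb1 (−0.12 ± 0.13), Zeb2 (0.04 ± 0.15) and Twist1 (0.08 ± 0.13) had folds within 1 SE of 0, with edgeR adjusted p = 0.852, 0.972 and 0.927. In other barcodes none of the 9 members passed either, where 0.133% of 17233 genes did. DESeq2 called 0, and 2 members, Sox9 and Snai1, had an unadjusted p under 0.05 with edgeR, as had 3111 of the 17233 genes. Sox9 (0.59 ± 0.24, edgeR adjusted p = 0.276) and Klf5 (0.44 ± 0.19, edgeR adjusted p = 0.290) had the same sign there as in tumour barcodes, with Sox9 at 32.1 to 57.8 CPM in libraries labelled shPgk1 and at 27.0 to 37.3 CPM in shNC libraries.

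Whether the group difference itself differed between gates was tested with a term for each library. Of tumour minus Col1a2-high barcodes, Zeb2 passed (−0.60 ± 0.13, edgeR adjusted p = 0.0411), 1 of 9 members where 0.59% of 15938 genes passed. Of tumour minus other barcodes, Zeb2 passed again (−0.60 ± 0.11, edgeR adjusted p = 0.0337), 1 of 9 members where 0.909% of 18038 genes passed. Both share the tumour values. The first was lost without library 1 or 3 labelled shPgk1 or without shNC library 1 (edgeR adjusted p = 0.110, 0.258 and 0.0689), and the second without library 2 or 3 labelled shPgk1 or shNC library 2 or 3 (0.110, 0.1997, 0.0784 and 0.122). Both were also lost with a tumour limit of 8 (0.145 and 0.0798) and with doublet-like barcodes kept (0.0696 and 0.0739), and the first with a tumour limit of 20 (0.0622) or a Col1a2 limit of 5 or 20 (0.164 and 0.0567). For Zeb1 the 2 differences were −0.45 ± 0.16 and −0.58 ± 0.13 (edgeR adjusted p = 0.1997 and 0.0523), and the second passed without TMM scaling (−0.73, edgeR adjusted p = 0.0183). For Sox9 they were 0.05 ± 0.16 and −0.02 ± 0.10 (the first turned to −0.09 without TMM scaling, intervals −0.26 to 0.36 and −0.23 to 0.19). In other barcodes Sox9 was at 9.46 to 12.3% of its tumour level, and the epithelial genes left out of the gate at 9.14 to 13.3%. The part of tumour RNA in the Sox9 values there was not tested. These terms therefore cannot tell whether the Sox9 difference is particular to tumour barcodes.

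Other genes of the same axis were read from lists. In the group comparison of tumour barcodes, 0 of 12 tested epithelial regulators (such as Grhl2, Ovol2 and Klf4) and 0 of 14 tested mesenchymal regulators (such as Prrx1, Foxc2 and Tead1) passed, with median log2 folds of 0.15 and 0.10 beside −0.03 over all genes tested. Without TMM scaling the medians were 0.03 and −0.02 beside −0.15, and 3 mesenchymal regulators, Lin28b, Prrx1 and Tead1, were called lower. At an unadjusted p under 0.05 there were 3 of the epithelial regulators, 2 on the higher and 1 on the lower side, and 8 of the mesenchymal ones, 4 on each side. Of all 16665 genes tested, 5312 had an unadjusted p under 0.05, so nothing is read from these 2 counts. At the adjusted threshold, 1.73% of all genes tested were called higher and 2.78% lower, beside which the called genes of each list stand. Of 12 junction and polarity genes, 2 rose and none fell, Rab25, a small GTPase of epithelial vesicle traffic (0.54 ± 0.12, edgeR adjusted p = 0.0395), and Dsp, which encodes the desmosome protein desmoplakin (0.60 ± 0.14, edgeR adjusted p = 0.0461). Without TMM scaling Dsp was not called (0.47, edgeR adjusted p = 0.0567). Cdh1, the E-cadherin gene that Snai and Zeb factors are known to repress, was at −0.16 ± 0.11 (edgeR adjusted p = 0.339). Of 13 mesenchymal genes tested, 2 fell and none rose, the integrin gene Itgb3 (−0.74 ± 0.15, edgeR adjusted p = 0.0365) and Lox, a collagen cross-linking enzyme (−0.85 ± 0.20, edgeR adjusted p = 0.0482), and the list's median was −0.48. A lower median of this list was not particular to tumour barcodes. It was −0.54 in other barcodes, with none of 14 genes called, and 0.06 in Col1a2-high barcodes. The fibroblast list summed to 219 to 311 CPM in tumour barcodes of libraries labelled shPgk1 and to 395 to 663 CPM in those of shNC libraries, and its part in this list was not tested. Vim, the intermediate filament vimentin of mesenchymal cells, was on the other side of 0, at 0.43 ± 0.13 (edgeR adjusted p = 0.0681). Of 7 tested partners or targets of Sox9 and Klf5, Aldh1a3, a retinaldehyde dehydrogenase, fell (−2.12 ± 0.40, edgeR adjusted p = 0.0319).

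Set against Col1a2-high barcodes, where 39% of all genes were higher and 34.1% lower, tumour barcodes had 11 of 11 tested junction genes higher and 13 of 14 mesenchymal genes lower, with S100a4 as the exception. Of 11 epithelial regulators tested, 9 were higher and 1, Klf4, was lower. The mesenchymal regulators were divided, with 5 of 12 higher and 6 lower, at a median log2 fold of −0.14, which is near the shares over all genes. Against other barcodes, where 40.3% of all genes were higher and 38.3% lower, 10 of 14 mesenchymal regulators were higher in tumour barcodes and 1, Prrx1, was lower, at a median of 1.36. All 12 junction genes tested were higher in tumour than in other barcodes. The gates rest on Epcam, keratins and Col1a2, so genes that go with these were partly sorted by the gates themselves. The junction and mesenchymal gene counts above therefore describe the gates.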

How the data were processed

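Raw UMI counts per gene and barcode were taken from 6 matrices deposited by the authors, 1 per library, and their file headers name PISA 0.12. The submitters' processing notes also name Seurat 4 and GRCh38 (hg38), while the gene names are mouse names, so the build is uncertain. For the aligner, the annotation and the treatment of strands and shared reads, nothing was stated and each counts as not given in the sources used here. Groups were taken from the titles.

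Barcodes needed 500 UMIs or more, 300 genes or more and no more than 20% of UMIs from mitochondrial genes, and those with a Scrublet score above 0.25 (scanpy 1.11.5, expected rate 0.06) were left out, a limit chosen after the scores were seen. Columns of other samples numbered 0. Leukocyte and stromal gates were sums of marker genes, with limits set after their distributions were seen. The level of 1 marker in these lists is not reported here. Barcodes were thinned to 3000 UMIs without replacement where shares were compared, and the shares and pair counts cover counting error only.

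Counts were summed per library and gate, since cells are not replicates, and the sums were compared by the robust quasi-likelihood test of edgeR 4.0.16 under R 4.3.3 (TMM normalization, filterByExpr) with Benjamini-Hochberg adjustment over all genes tested and a threshold of 0.05. The standard error is the log2 fold divided by the square root of F. Gate comparisons and differences of the group effect had library as a term. DESeq2 1.42.0 was an alternative. The tests were checked on simulated counts. Levels of different genes are not compared, since UMIs were not set per length.

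All 9 members, Pgk1, up to 4 called genes per direction of each list and the 3 most alike genes of each member were named. Klf4, S100a4, Prrx1, Cdh1 and Vim were named after their values were seen, as were the examples of the regulator lists. The members and lists were chosen with earlier results of these data known. Both groups carry numbers 1, 2 and 3 in the titles. Same-numbered libraries had correlations of −0.15, 0.25 and −0.28 between their deviations from the group means in tumour barcodes, so the numbers do not pair them.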

Additional observations from a re-analysis of the deposited data

Results flagged for a closer look

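The group difference of Zeb2 differed between gates by a direct test, in the main setting. Both differences below were lost with a tumour limit of 8, with doublet-like barcodes kept and in several runs with a library left out, as given above. The log2 fold of libraries labelled shPgk1 over shNC differed by −0.60 for tumour minus Col1a2-high barcodes (tumour −0.58 ± 0.15, Col1a2-high 0.04 ± 0.15, edgeR adjusted p of the difference = 0.0411). It differed by −0.60 for tumour minus other barcodes (other 0.02 ± 0.16, edgeR adjusted p of the difference = 0.0337). Zeb2 in tumour barcodes was lower in 3 of 3 libraries labelled shPgk1 than in every shNC library. The macrophage list in tumour barcodes was at 513 to 842 CPM in libraries labelled shPgk1 and at 891 to 1096 CPM in shNC libraries. The neutrophil list there was at 135 to 179 CPM in libraries labelled shPgk1 and at 355 to 478 CPM in shNC libraries. The part of both lists in the difference was not tested. Groups of 3 libraries are too small to look for single outlying samples.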

How the results depend on the processing

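Tumour against Col1a2-high barcodes gave 9 members called in every alternative run, and tumour against other barcodes 8 or 9. The group comparison was less stable. In tumour barcodes 1 member was called, against 2 without a filter on low counts or without TMM scaling (the last chosen after seeing the data, in each comparison), 4 with DESeq2, 0 with a tumour limit of 8 or 20 or with doublet-like barcodes kept, and 0 to 3 when 1 library was left out. Genes called there were 752, against 2260 without a filter, 2506 with DESeq2, 1495 without TMM scaling, 185 with a limit of 20, and 6 to 3291 with 1 library left out. The cause was not tested.

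In Col1a2-high barcodes 0 members were called, against 1 without a filter, and 5 genes, against 314 without a filter, 40 with DESeq2, 3 with a tumour limit of 8 or without TMM scaling, 21 with a Col1a2 limit of 5, 2 with doublet-like barcodes kept and 0 to 14 with 1 library left out. In other barcodes 23 genes were called, against 224 without a filter, 651 with DESeq2, 81 in macrophage-gated barcodes alone (chosen after seeing the data) and 3 to 45 with 1 library left out.

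For the difference of tumour minus Col1a2-high barcodes 1 member was called, against 2 without a filter, 0 with a tumour limit of 8 or 20, a Col1a2 limit of 5 or 20 or doublet-like barcodes kept, and 0 to 1 with 1 library left out. Genes called were 94, against 565 without a filter, 188 with DESeq2, 189 without TMM scaling, 61 with a Col1a2 limit of 20, 145 without barcodes past both limits and 27 to 285 with 1 library left out. For tumour minus other barcodes 1 member was called, against 2 with RLE normalization, without a filter, without TMM scaling or with DESeq2, 0 with a tumour limit of 8 or doublet-like barcodes kept, and 0 to 2 with 1 library left out. Genes called were 164, against 349 with RLE, 1303 without a filter, 586 with DESeq2, 685 without TMM scaling, 37 and 435 with a tumour limit of 8 and 20, 96 with a Col1a2 limit of 5, 26 with doublet-like barcodes kept and 8 to 798 with 1 library left out. Combinations whose shares did not overlap numbered 4, against 5 to 10 with 1 library left out. Leaving a library out can only keep or raise that number, so such a rise is built into the count. Pairs above 1 numbered 8, against 28 without thinning.

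The replicate numbers share no known source. With the replicate block 0 members and 262 genes were called in tumour barcodes (Zeb1 adjusted p = 0.0730 with edgeR) and 25 genes in Col1a2-high barcodes, and the log2 fold of Zeb1 in other barcodes was −0.0035.

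Sign changes occurred among log2 folds that were not called. They were 0.014 for Zeb1 (Col1a2 limit 20) and −0.16 and −0.0024 for Zeb2 (Col1a2 limit 5 and 20) in Col1a2-high barcodes, 0.066 for Elf3 (macrophage-gated) and −0.0058 for Zeb1 (tumour limit 8) in other barcodes, −0.039 and −0.0097 for Sox9 (tumour and Col1a2 limit 20) in tumour minus Col1a2-high barcodes, and 0.039 and 0.0024 for Sox9 (no filter, doublet-like barcodes kept) and −0.0064 for Klf5 (tumour limit 20) in tumour minus other barcodes. Without TMM scaling they were −0.097 for Twist1 in tumour barcodes, −0.090 for Sox9 in tumour minus Col1a2-high barcodes, and −0.053 for Klf5 and −0.030 for Hmga2 in tumour minus other barcodes. With 1 library left out the ranges that crossed 0 were −0.069 to 0.17 for Twist1 in tumour barcodes, −0.095 to 0.27 for Klf5, −0.035 to 0.16 for Twist1 and −0.085 to 0.18 for Zeb2 in Col1a2-high barcodes, −0.19 to 0.16 for Elf3, −0.093 to 0.19 for Zeb1 and −0.094 to 0.23 for Zeb2 in other barcodes, −0.089 to 0.18 for Sox9 and −0.20 to 0.022 for Twist1 in tumour minus Col1a2-high barcodes, and −0.084 to 0.058 for Sox9, −0.0065 to 0.17 for Klf5 and −1.45 to 0.23 for Snai2 in tumour minus other barcodes. Depth limits Snai2, with 35 counts in tumour barcodes, and Zeb1, with 1547.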
